A study of Mus musculus with 19 samples.

Results

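The respiratory chain genes described here are the protein-coding genes whose mouse symbol marks them as mitochondrially encoded (mt-) or as a nuclear encoded subunit of complex I (Ndufa, Ndufb, Ndufc, Ndufs, Ndufv), complex II (Sdha to Sdhd), complex III (Uqcr and Cyc1), complex IV (Cox4 to Cox8) or complex V, the ATP synthase (Atp5). Of the 26796 genes with expected counts, 103 carry such a symbol, 6 of them are processed pseudogenes and 97 are members. Complexes were assigned by symbol alone, so a member need not be a subunit of the complex it is counted under. The mitochondrial genome encodes 13 members and the nucleus 84: 37 of complex I, 4 of complex II, 9 of complex III, 17 of complex IV and 17 of complex V. The tumours came from mice bearing Met1, a transplantable mouse mammary tumour line, that were given extracellular vesicles released by neutrophils. In 10 tumours the vesicles came from neutrophils treated with 27-hydroxycholesterol (27HC), a metabolite of cholesterol, and in 9 tumours from neutrophils treated with the vehicle DMSO. All tumours thus received neutrophil vesicles and none stands for an untreated tumour. No source used here gives the host strain, age, vesicle dose, route or time. RNA of each whole tumour was extracted with Trizol after freezing on dry ice, and stranded poly(A) libraries were sequenced from both ends on an Illumina instrument.

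The respiratory chain passes electrons from NADH and succinate to oxygen and pumps protons out of the mitochondrial matrix, and the ATP synthase uses the returning protons to make ATP. Complex II is wholly nuclear encoded, while complexes I, III, IV and V combine proteins made inside the mitochondrion, which form much of their membrane core, with proteins imported from the cytosol. Mitochondrial genes are read as long transcripts of both DNA strands, which are cut into shorter messages, most of them with short poly(A) tails. Each nuclear gene, in contrast, has its own promoter.

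No respiratory chain gene passed the test between 27HC and DMSO tumours. The mitochondrially encoded messages were the more abundant ones per length and, by the median of the group, also the more variable ones. All 4 fold changes of complex II were below 0, though not under every alternative setting, while most of those of the other complexes were above 0.

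The series holds 28139419 to 41179056 expected counts per tumour. The fit covered 15629 genes, of which 0 passed an adjusted p of 0.05 in edgeR's quasi-likelihood test (0.0%) and 354 had an unadjusted p under 0.05 (2.27%). No label ties a tumour to its own mouse, so p-values measure only the spread between these samples. Of the epithelial markers Epcam, Krt8, Krt18, Krt7 and Cdh1, all were present, and their summed level was 99.6 ± 29.8 CPM (SD, n = 10) in 27HC tumours and 103 ± 27.2 CPM (SD, n = 9) in DMSO tumours, where CPM is the count scaled to the normalized library size. Skeletal muscle, a tissue rich in mitochondria, was represented unevenly: its 15 markers summed to between 6.997 and 5293 CPM in 27HC tumours and between 8.52 and 1643 CPM in DMSO tumours. Salivary gland markers reached 6087 CPM in DMSO 1_5 and at most 3.702 CPM in every other tumour. A group of 4 libraries had a lower GC content than the rest, 50.2 to 50.5% against 51.2 to 53.5% as a mean of transcript GC over nuclear encoded reads. They were 27HC 1_3, 27HC 2_3, DMSO 1_5 and DMSO 2_3, and sums and fold changes are given with and without them, while correlations that involve GC-rich nuclear genes are given only over the other 15 tumours. In a whole tumour, fewer cells of a type and less RNA per cell cannot be told apart.

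Several mitochondrial messages have nearly identical copies in the nuclear genome, and their reads were divided between gene and copy by the estimation of the deposited counts. The clearest case is mt-Nd3, a membrane subunit of complex I encoded at chrM:9459-9806 on the plus strand of GRCm38. Its copy Gm28438 on chromosome 1 aligns over 345 bases with 1 substitution, T3C, counted from the first base of mt-Nd3 with the mitochondrial base first. The first 61 bases of each are shown to make plain how little separates them, with the differing base in capitals:
mt-Nd3: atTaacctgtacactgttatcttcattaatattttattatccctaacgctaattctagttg
Gm28438: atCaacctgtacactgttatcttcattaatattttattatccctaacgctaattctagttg
Gm28438 held 3609 to 37070 expected counts per tumour, so a large share of reads that match mt-Nd3 was listed under the copy. For mt-Co2, a catalytic subunit of complex IV at chrM:7013-7696 on the plus strand, the copy Gm28661 is identical over all 681 aligned bases and held 9351 to 172900 expected counts. The split between gene and copy differed between tumours: Gm28439, identical to mt-Nd4 over 876 bases, held 20750 to 29460 expected counts in the 4 libraries of low GC content and at most 3417 in the other 15. Likewise Gm29216, which aligns with the catalytic subunit gene mt-Co1 over 483 bases, held 38470 expected counts in 27HC 1_5, 22900 in 27HC 2_4 and at most 120.0 elsewhere. All copies of mitochondrial members together were 4.71 ± 2.67% (SD, n = 10) of mitochondrial members plus copies in 27HC tumours and 5.11 ± 1.56% (SD, n = 9) in DMSO tumours. For nuclear members the share of their copies was 4.28 ± 0.72% (SD, n = 10) in 27HC tumours and 3.76 ± 0.33% (SD, n = 9) in DMSO tumours. Gm10175, identical to Atp5g2 over 645 bases, held 2301 to 7514 expected counts, and Ndufb4c, identical to Ndufb4 over 390 bases, 1110 to 3073.

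Messages of the mitochondrial genome summed to a lowest value of 39240, a median of 68280 and a highest value of 126300 CPM in 27HC tumours, against 23540, 49190 and 125700 CPM in DMSO tumours. The nuclear members summed to 3966, 7212 and 10430 CPM in 27HC tumours, against 4090, 6632 and 10520 CPM in DMSO tumours. In both sums 27HC 1_2 and DMSO 1_3 were the highest tumours of their group, and the groups overlapped over most of their range. The mean mitochondrial sum was 72110 ± 28390 CPM (SD, n = 10) in 27HC tumours and 58260 ± 32260 CPM (SD, n = 9) in DMSO tumours, a difference smaller than either SD. The mean nuclear sum was 7094 ± 2057 CPM (SD, n = 10) in 27HC tumours and 6771 ± 2100 CPM (SD, n = 9) in DMSO tumours. Without the 4 libraries of low GC content the nuclear sum was 7855 ± 1457 CPM (SD, n = 8) in 27HC tumours and 7504 ± 1746 CPM (SD, n = 7) in DMSO tumours, and the mitochondrial sum 77900 ± 28970 CPM (SD, n = 8) in 27HC tumours and 61230 ± 36610 CPM (SD, n = 7) in DMSO tumours. Red cell markers were also highest in these same tumours, at 1525 CPM in 27HC 1_2 and 2150 CPM in DMSO 1_3, against 35.4 to 546.3 CPM elsewhere; their part in the sums was not tested.

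The mitochondrial sum exceeded the nuclear sum in every tumour, and the ratio of the sums was 10.2 ± 2.48 (SD, n = 10) in 27HC tumours and 8.61 ± 3.25 (SD, n = 9) in DMSO tumours. The ratio ran between 6.55 and 14.0 with a median of 10.2 in 27HC tumours, and between 3.55 and 12.03 with a median of 9.84 in DMSO tumours. The lowest ratios belonged to DMSO 1_2 with 3.55, DMSO 2_2 with 4.57 and DMSO 2_4 with 5.42, which lay below every 27HC tumour, while the other 6 DMSO tumours lay within the 27HC range. On the log2 scale the mean ratio was 0.32 higher in 27HC tumours, less than the SD within DMSO tumours of 0.66, and 0.18 higher without DMSO 1_2. DMSO 1_2 was also the tumour with the highest brown fat markers, 16.6 CPM, and macrophage markers, 2464 CPM; their part in its ratio was not tested.

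**Figure D1:**
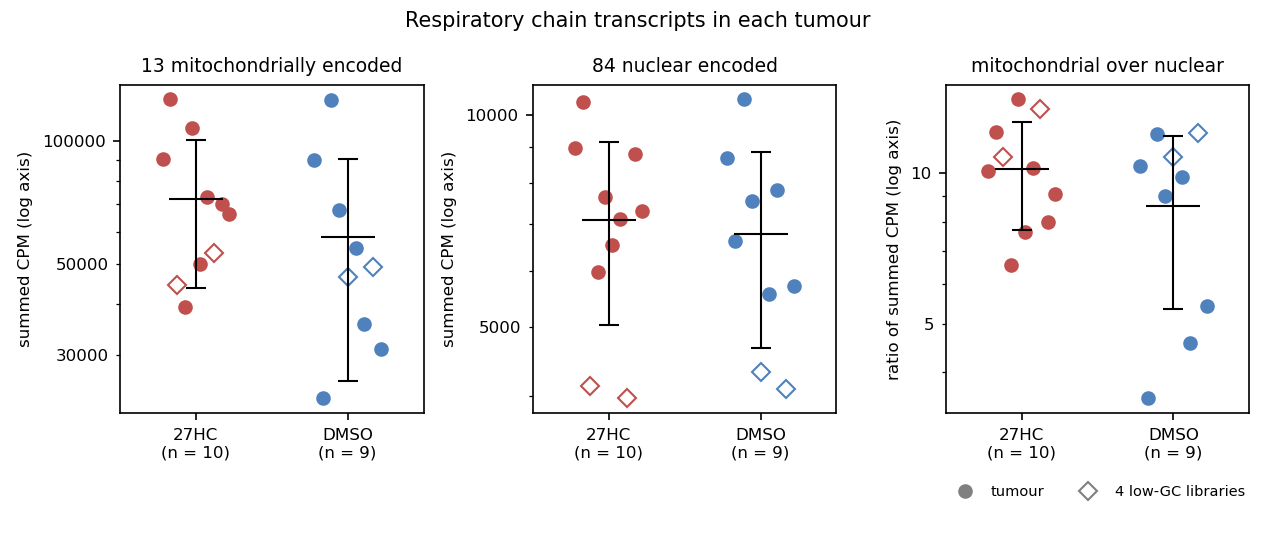
Each point is a tumour, 27HC left and DMSO right, with the mean and SD as bars: summed CPM of the 13 mitochondrially encoded members, summed CPM of the 84 nuclear encoded members, and the ratio of both sums. The groups overlap in all panels, 3 DMSO tumours lie at ratios of 3.55 to 5.42 below the 27HC range, and the 4 libraries of low GC content have the lowest nuclear sums, 3966 to 4316 CPM.

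Levels of different genes were compared per kilobase of transcript. The median level was 3400 CPM per kb over the 13 mitochondrially encoded members and 59.2 CPM per kb over the 84 nuclear ones, and the lowest mitochondrial member, mt-Nd3 with 558 CPM per kb, was above the highest nuclear member, Atp5h with 509.1 CPM per kb. How poly(A) selection weighs short mitochondrial against longer nuclear tails was not tested. The highest member was mt-Co1, the catalytic subunit that reduces oxygen, with 17010 CPM per kb, followed by mt-Atp6 with 9601, mt-Nd1 with 7071 and mt-Co3 with 6330 CPM per kb. The nuclear members with the highest level after Atp5h, a stalk subunit of the ATP synthase, were its catalytic beta subunit Atp5b with 457.3, and the complex IV subunits Cox6a1 with 425.2, Cox4i1 with 422.7 and Cox8a with 419.0 CPM per kb. Nuclear complex II genes were lowest as a group, with a median of 36.9 CPM per kb, against 47.1 for complex I, 73.6 for complex IV, 91.3 for complex V and 92.1 CPM per kb for complex III. Across tumours the SD of log2 CPM had a median of 0.78 over mitochondrial members and 0.53 over nuclear ones. Among the nuclear complexes this median was lowest for complex II, at 0.35. The SDs of single members overlapped, from 0.61 to 1.35 for mitochondrial and from 0.21 to 1.63 for nuclear members.

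All 13 mitochondrial fold changes were above 0 in 27HC over DMSO tumours, with a median log2 fold change of 0.41 and a range of 0.03 to 0.73. The 83 tested nuclear members had a median of 0.11, with 66 above 0 and 17 below 0, and the median of all 15629 genes was 0.01, with 53.9% of them above 0. Among the 96 tested members 0 were called and 0 had an unadjusted p under 0.05 in edgeR's quasi-likelihood test, against 0.0% and 2.27% of all genes; each had an adjusted p of 0.9998. The mitochondrial genes share transcripts, tumours and reads with their copies, so their common sign is no count of independent results. It was 13 of 13 under the other scalings of library size, 12 of 13 with nuclear copies added and 11 of 13 in tumours whose title numbers begin with 1. Leaving out 27HC 1_5 alone turned mt-Nd2 to -0.10, mt-Cytb to -0.01 and mt-Co2 to -0.08. Of the skeletal muscle markers 15 of 15 also had a fold change above 0, with a median log2 value of 1.95. Summed muscle markers and the mitochondrial sum were both high in 27HC 1_2 and 27HC 1_5 but not in every tumour. In 27HC 1_3, a library of low GC content, they were 4591 and 44540 CPM. DMSO 1_2 had 1643 CPM of muscle markers and the lowest mitochondrial sum, 23540 CPM. DMSO 1_3 had 19.1 CPM of muscle markers and a mitochondrial sum of 125700 CPM. With the muscle score as a covariate 12 of 13 mitochondrial fold changes were above 0, with a median of 0.32, and the median of the 7 of complex I was 0.07, against 0.17 without the covariate. The part of muscle tissue in the mitochondrial sums and fold changes was not tested. Both groups overlapped for all 97 members, a description given without the share over all genes, so it does not set the members apart. The 95% interval stayed inside a 2-fold change, up or down, for 6 of 13 mitochondrial and 73 of 83 nuclear members. For all 96 members the interval left out a level 2-fold lower in 27HC tumours.

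**Figure D2:**
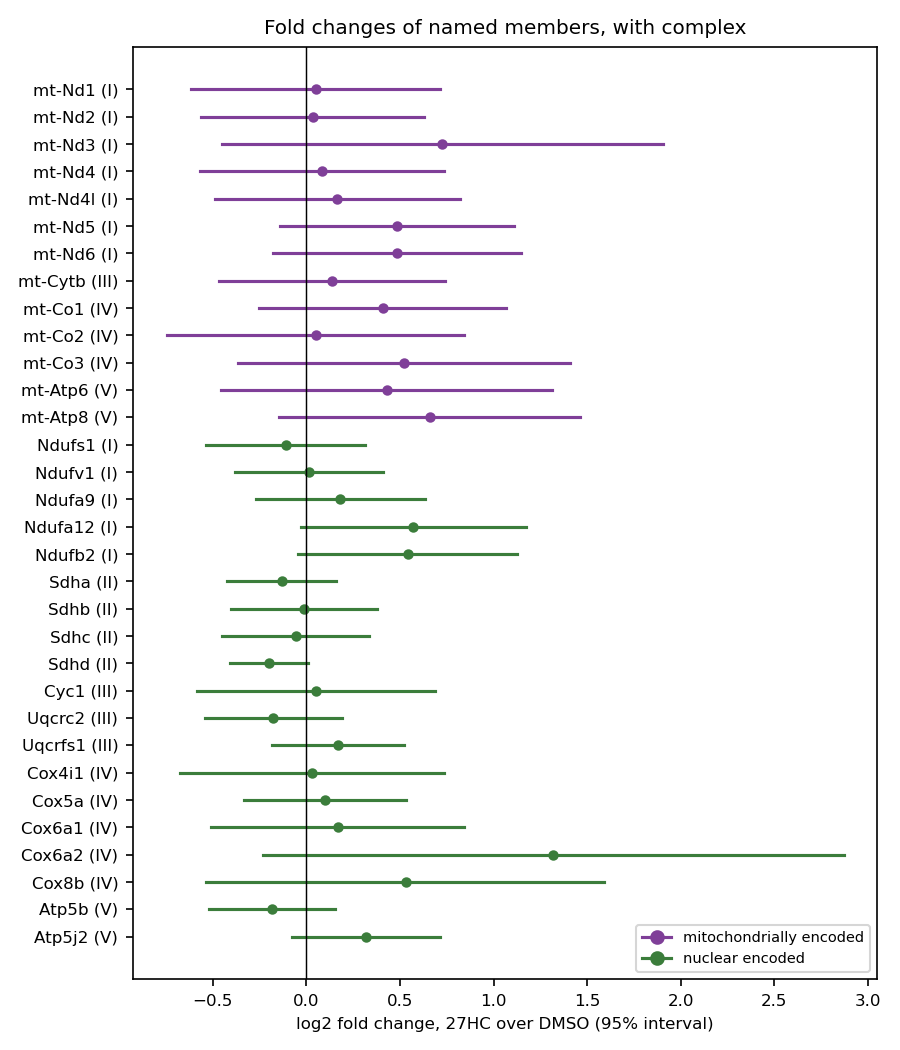
Points are log2 fold changes of 27HC over DMSO tumours for the 13 mitochondrially and 19 of the nuclear encoded members, with 95% intervals from edgeR's quasi-likelihood test as bars, grouped by complex. All mitochondrial points lie above 0, from 0.03 to 0.73, and every interval includes 0.

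In complex I, which takes electrons from NADH, the mitochondrial sum was 20370 ± 6541 CPM (SD, n = 10) in 27HC tumours and 18320 ± 11520 CPM (SD, n = 9) in DMSO tumours. The gene mt-Nd5, a proton-pumping subunit, had a lowest level of 1949, a median of 3792 and a highest of 6534 CPM in 27HC tumours, against 614.5, 2540 and 4443 CPM in DMSO tumours. The groups overlapped, with 27HC 1_5 highest and DMSO 1_2 lowest, and the log2 fold change was 0.49 (SE 0.30). Its neighbour mt-Nd6, the only member read from the opposite strand, overlaps it at the 3′ ends (chrM:11742-13565 plus, chrM:13552-14070 minus) and had a log2 fold change of 0.48 (SE 0.32). No source used here says whether the counting used strand. Levels of mt-Nd3 were 33.7, 161 and 649.5 CPM (lowest, median, highest) in 27HC tumours, against 40.7, 67.6 and 463.5 CPM in DMSO tumours, and the log2 fold change was 0.73 (SE 0.57). This was the largest mitochondrial fold change, it had the widest spread, and the level depends on the split with Gm28438: gene and copies together had 775.7 ± 580.8 CPM (SD, n = 10) in 27HC tumours and 467.2 ± 499.7 CPM (SD, n = 9) in DMSO tumours. The membrane subunit genes mt-Nd1, mt-Nd2 and mt-Nd4 had log2 fold changes of 0.05 (SE 0.32), 0.03 (SE 0.29) and 0.08 (SE 0.31), and mt-Nd4l had 0.17 (SE 0.32). Leaving out 1 tumour turned the sign of mt-Nd1, mt-Nd2 and mt-Nd4, with lowest values of -0.09, -0.10 and -0.04.

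The 37 nuclear members of complex I summed to 1953 ± 617 CPM (SD, n = 10) in 27HC tumours and 1761 ± 563 CPM (SD, n = 9) in DMSO tumours, and 34 had a fold change above 0, with a median of 0.14. Its catalytic core, which carries the flavin and iron-sulphur clusters and binds ubiquinone, had these log2 fold changes: Ndufv1 0.01, Ndufv2 0.17, Ndufs3 0.00, Ndufs7 0.10 and Ndufs8 0.03. Ndufs1, the largest iron-sulphur subunit, was at -0.11 (SE 0.20), with 25.6, 35.7 and 66.6 CPM in 27HC tumours (lowest, median, highest), against 29.0, 43.4 and 64.7 CPM in DMSO tumours. The accessory subunit Ndufa9 was at 0.18 (SE 0.22), and Ndufa10 had the smallest unadjusted p on the lower side, with -0.15 (SE 0.18). On the higher side this was Ndufa12, an accessory subunit, which had 35.1, 85.2 and 139 CPM in 27HC tumours, against 33.0, 46.2 and 89.0 CPM in DMSO tumours. The 27HC tumours of Ndufa12 reached higher than any DMSO tumour but began at a similar level, and its log2 fold change was 0.57 (SE 0.29, unadjusted p = 0.0620 in edgeR's quasi-likelihood test). Ndufb2, an accessory subunit named after its values were seen, was at 0.54 (SE 0.28). A processed copy of Ndufa12, Gm15920, held 393.0 to 1374 expected counts per tumour.

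Ndufa4l2, which is known to be induced in low oxygen, is placed in complex I by its symbol, although its relative Ndufa4 is described as a complex IV subunit. It had 1.59, 5.07 and 9.47 CPM in 27HC tumours (lowest, median, highest), against 0.802, 4.27 and 12.3 CPM in DMSO tumours, and a log2 fold change of 0.10 (SE 0.40). Across the 15 tumours without the low GC libraries it did not follow Car9, carbonic anhydrase IX, another gene known to rise in low oxygen: r was 0.26 and rho 0.34, with permutation p of 0.345 and 0.216 before and after adjustment over 6 gene pairs. Ndufa4 itself had a log2 fold change of 0.01.

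Complex II, which oxidises succinate and also serves the citric acid cycle, was the only complex with no mitochondrial gene and the only one whose fold changes were all below 0, with a median of -0.09. All 4 were also below 0 without the libraries of low GC content and with mitochondrial genes left out of library sizes. The same held with other filters on low counts and with nuclear copies added, but not in every setting. With RLE size factors, DESeq2, limma-voom, or the first title number or the muscle score as a covariate, 1 of the 4 was above 0. That was also so with the full title number as a replicate block and in tumours with title number 1 alone. With RLE size factors Sdhb was at 0.01, in tumours with title number 2 it was at 0.14 and 2 of the 4 were above 0, and without DMSO 1_3 Sdhb was at 0.13 and Sdhc at 0.03. The complex summed to 325 ± 30.1 CPM (SD, n = 10) in 27HC tumours and 345 ± 54.4 CPM (SD, n = 9) in DMSO tumours. Sdhd, a membrane anchor that helps bind ubiquinone, had 37.4, 42.5 and 58.2 CPM in 27HC tumours (lowest, median, highest), against 39.5, 49.0 and 59.2 CPM in DMSO tumours. Apart from 27HC 1_5 with 58.2 CPM, the 27HC tumours of Sdhd lay between 37.4 and 45.6 CPM, inside the lower part of the DMSO range. Its log2 fold change was -0.20 (SE 0.10), and its unadjusted p of 0.0612 was the smallest among all members in edgeR's quasi-likelihood test. Sdha, the flavoprotein that oxidises succinate, had 70.9, 88.7 and 134 CPM in 27HC tumours, against 81.7, 119.5 and 126 CPM in DMSO tumours, and its log2 fold change was -0.13 (SE 0.14). The iron-sulphur subunit Sdhb and the anchor Sdhc were at -0.01 (SE 0.19) and -0.06 (SE 0.19). The 13 listed enzymes of the citric acid cycle, which leave out Sdha to Sdhd, had 0 fold changes above 0 and 13 below, with a median of -0.06; 0 were called and 0 had an unadjusted p under 0.05 in edgeR's quasi-likelihood test.

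Promoters of many nuclear members, though not of all, carry motifs of the factors that are textbook regulators of mitochondrial biogenesis. RefSeq windows from 250 bases before to 50 bases after the start site (GRCm38.p6) matched 66 of the 84 nuclear members, with 71 windows. On either strand the NRF1 motif GCGCANGCG lay in 21 of them (29.6%), against 6.25% of all 32851 windows. The ETS motif CCGGAAG, which GABP binds, lay in 16 (22.5%), against 8.86%, the YY1 motif AAGATGGCG in 7 (9.86%), against 1.40%, and the ERR motif AAGGTCA in 8 (11.3%), against 4.72%. The motifs may overlap one another, and 52.1% of members' windows held at least 1 of them, against 19.1% of all windows. All windows were not matched to those of members for GC content, and a match is a run of letters and no evidence of binding in these tumours. The Sdhd window is shown as an example with 3 of the 4 motifs, in capitals in this order: NRF1, ETS and ERR, the last pair as reverse complements (chr9:50603800-50604099, minus strand). Atp5k and Atp5l also had matches to these 3 motifs, and Sdhd is also the member with the smallest unadjusted p. The Ndufb7 window, with 1 ETS match in capitals, belongs to a complex I gene that was far lower in the libraries of low GC content (chr8:83566508-83566807, plus strand):
Sdhd: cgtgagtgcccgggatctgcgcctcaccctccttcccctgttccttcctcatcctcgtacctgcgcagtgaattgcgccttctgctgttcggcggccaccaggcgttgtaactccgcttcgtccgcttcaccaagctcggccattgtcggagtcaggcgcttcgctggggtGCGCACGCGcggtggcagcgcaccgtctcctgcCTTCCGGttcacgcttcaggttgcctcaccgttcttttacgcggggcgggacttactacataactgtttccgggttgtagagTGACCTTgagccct
Ndufb7: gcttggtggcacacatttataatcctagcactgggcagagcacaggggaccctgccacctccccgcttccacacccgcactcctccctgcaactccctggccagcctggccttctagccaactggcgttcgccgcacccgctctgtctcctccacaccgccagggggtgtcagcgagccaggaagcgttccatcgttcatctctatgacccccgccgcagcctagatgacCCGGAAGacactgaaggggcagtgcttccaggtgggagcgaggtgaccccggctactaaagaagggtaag

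Complex III passes electrons from ubiquinol to cytochrome c. Its mitochondrial gene mt-Cytb, which encodes cytochrome b, had 3166, 4382 and 8927 CPM in 27HC tumours (lowest, median, highest), against 1387, 4370 and 9374 CPM in DMSO tumours. The medians nearly coincided and the log2 fold change was 0.14 (SE 0.29). The 9 nuclear members summed to 714.5 ± 201 CPM (SD, n = 10) in 27HC tumours and 672 ± 214 CPM (SD, n = 9) in DMSO tumours, with 7 fold changes above 0, 2 below and a median of 0.15. The redox subunits were at 0.17 (SE 0.17) for the Rieske protein Uqcrfs1 and 0.05 (SE 0.31) for Cyc1, cytochrome c1. The core proteins Uqcrc1 and Uqcrc2 were at -0.02 (SE 0.30) and -0.18 (SE 0.17), and Uqcrh, the hinge protein, at 0.22 (SE 0.17).

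In complex IV, which hands electrons to oxygen, the mitochondrial sum was 38570 ± 17930 CPM (SD, n = 10) in 27HC tumours and 29430 ± 14760 CPM (SD, n = 9) in DMSO tumours. The gene mt-Co1 made up 40.3 ± 9.18% of the mitochondrial sum (SD, n = 10) in 27HC tumours and 40.6 ± 8.07% (SD, n = 9) in DMSO tumours. Its levels were 13800, 30490 and 55240 CPM in 27HC tumours (lowest, median, highest), against 11830, 17120 and 42030 CPM in DMSO tumours. The highest tumours were 27HC 1_2, 27HC 1_1 and DMSO 1_1 and the lowest DMSO 1_2, the groups overlapped, and the log2 fold change was 0.41 (SE 0.32). The other core subunit genes were at 0.52 (SE 0.43) for mt-Co3 and 0.05 (SE 0.38) for mt-Co2. With nuclear copies added, mt-Co2 had 5324 ± 1334 CPM (SD, n = 10) in 27HC tumours and 5556 ± 3597 CPM (SD, n = 9) in DMSO tumours, and its log2 fold change turned to -0.06.

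The 17 nuclear members of complex IV summed to 1382 ± 481 CPM (SD, n = 10) in 27HC tumours and 1286 ± 500.3 CPM (SD, n = 9) in DMSO tumours, with 13 fold changes above 0 and 3 below among 16 tested. Cox4i1, the general form of a regulatory subunit, had 107, 353.9 and 569.8 CPM in 27HC tumours (lowest, median, highest), against 111, 281.6 and 701 CPM in DMSO tumours, and a log2 fold change of 0.03 (SE 0.34). The subunits Cox5a, Cox6a1, Cox7a2 and Cox8a were at 0.10, 0.17, 0.30 and 0.03, each within 1 SE of 0 except Cox7a2 with an SE of 0.24. Cox4i2, the form known from lung and low oxygen, was at -0.11 (SE 0.27). Cox6b2, a testis form, stayed under 1 CPM in every tumour and was at -0.12 (SE 0.28). Cox7b2, also known from testis, had 0.0998 CPM as its median in 27HC tumours and 0.102 CPM in DMSO tumours, and was left out by the filter on low counts.

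The largest fold change of all members belonged to Cox6a2, the form of subunit 6a found in heart and skeletal muscle. It had 0.675, 2.19 and 33.8 CPM in 27HC tumours (lowest, median, highest), against 0.640, 1.35 and 8.10 CPM in DMSO tumours. It was high in 27HC 1_5 with 33.8, 27HC 1_3 with 15.3 and 27HC 1_2 with 6.49 CPM, and in DMSO 1_4 with 8.10 and DMSO 1_2 with 7.93 CPM, and was at most 5.54 CPM in the others. The same 5 tumours had the highest summed skeletal muscle markers, at 5293, 4591 and 1504 CPM for these 27HC tumours and 1586 and 1643 CPM for these DMSO tumours. Of the 15 muscle markers 0 were called and 5 had an unadjusted p under 0.05 in edgeR's quasi-likelihood test. The log2 fold change of Cox6a2 was 1.32 (SE 0.75), 0.50 without 27HC 1_5, 0.90 without the libraries of low GC content and 0.08 (SE 0.28) with the muscle score as a covariate. Cox6a2 followed Ckm, the muscle creatine kinase, across the 19 tumours, with r = 0.871 and rho = 0.893 (permutation p adjusted over 6 pairs = 6e-05 for each). Without 27HC 1_3 and 27HC 1_5, the tumours farthest from the median, r was 0.871, without the low GC libraries 0.849, and within groups it was 0.861 in 27HC tumours and 0.912 in DMSO tumours. The general form Cox6a1 did not share this pattern: it had 230.9 CPM in 27HC 1_5 and 85.0 CPM in 27HC 1_3, against a range of 84.5 to 408 CPM over all tumours.

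Cox8b, another muscle form, had 5.55 CPM in 27HC 1_5 and at most 1.17 CPM in the other 27HC tumours, against 0.161 to 2.46 CPM in DMSO tumours. Its log2 fold change was 0.53 (SE 0.51) and turned to -0.19 without 27HC 1_5. Cox7a1, a further muscle form, was at 0.18 (SE 0.41) and at -0.07 with the muscle score as covariate. No tumour had more than 33.8 CPM of any of these 3 forms, which is little beside the 644 to 2185 CPM summed over nuclear members of complex IV.

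**Figure D3:**
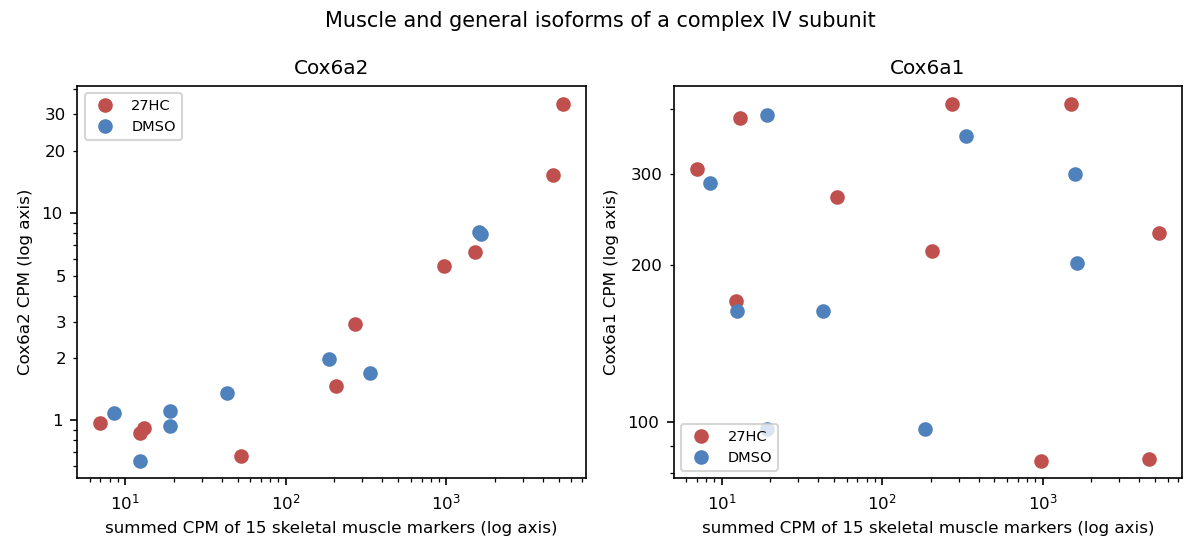
Each point is a tumour, with the summed CPM of 15 skeletal muscle markers on the horizontal log axis and the CPM of Cox6a2 or Cox6a1 on the vertical log axis, 27HC and DMSO tumours in separate colours. Cox6a2 climbs with the markers to 33.8 CPM in 27HC 1_5, while Cox6a1 stays between 84.5 and 408 CPM with no such order.

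In complex V, the ATP synthase, the mitochondrial sum was 8240 ± 4996 CPM (SD, n = 10) in 27HC tumours and 6039 ± 5568 CPM (SD, n = 9) in DMSO tumours. The gene mt-Atp8, a small membrane subunit, had 316, 636 and 1712 CPM in 27HC tumours (lowest, median, highest), against 145, 397.8 and 1492 CPM in DMSO tumours. DMSO 1_3 and DMSO 1_2 marked the ends of the DMSO range, which covered 27HC tumours other than 27HC 1_2 and 27HC 1_5. Its log2 fold change was 0.66 (SE 0.39), the smallest unadjusted p among mitochondrial members at 0.103 in edgeR's quasi-likelihood test, and mt-Atp6, the proton channel subunit whose gene overlaps it (chrM:7766-7969 and chrM:7927-8607), was at 0.43 (SE 0.43). Without DMSO 1_3 these values were 1.07 and 0.93, and without 27HC 1_5 they were 0.45 and 0.24.

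The 17 nuclear members of complex V summed to 2719 ± 740.9 CPM (SD, n = 10) in 27HC tumours and 2706 ± 782 CPM (SD, n = 9) in DMSO tumours, with 12 fold changes above 0, 5 below and a median of 0.09. Atp5b, the catalytic beta subunit, had 565.3, 888 and 1063 CPM in 27HC tumours (lowest, median, highest), against 588.7, 935.7 and 1229 CPM in DMSO tumours, and was at -0.18 (SE 0.16). Atp5a1, the alpha subunit, was at -0.12 (SE 0.13). Atp5j2, a membrane subunit, was at 0.32 (SE 0.19), and no fold change of the complex passed the test.

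**Figure D4:**
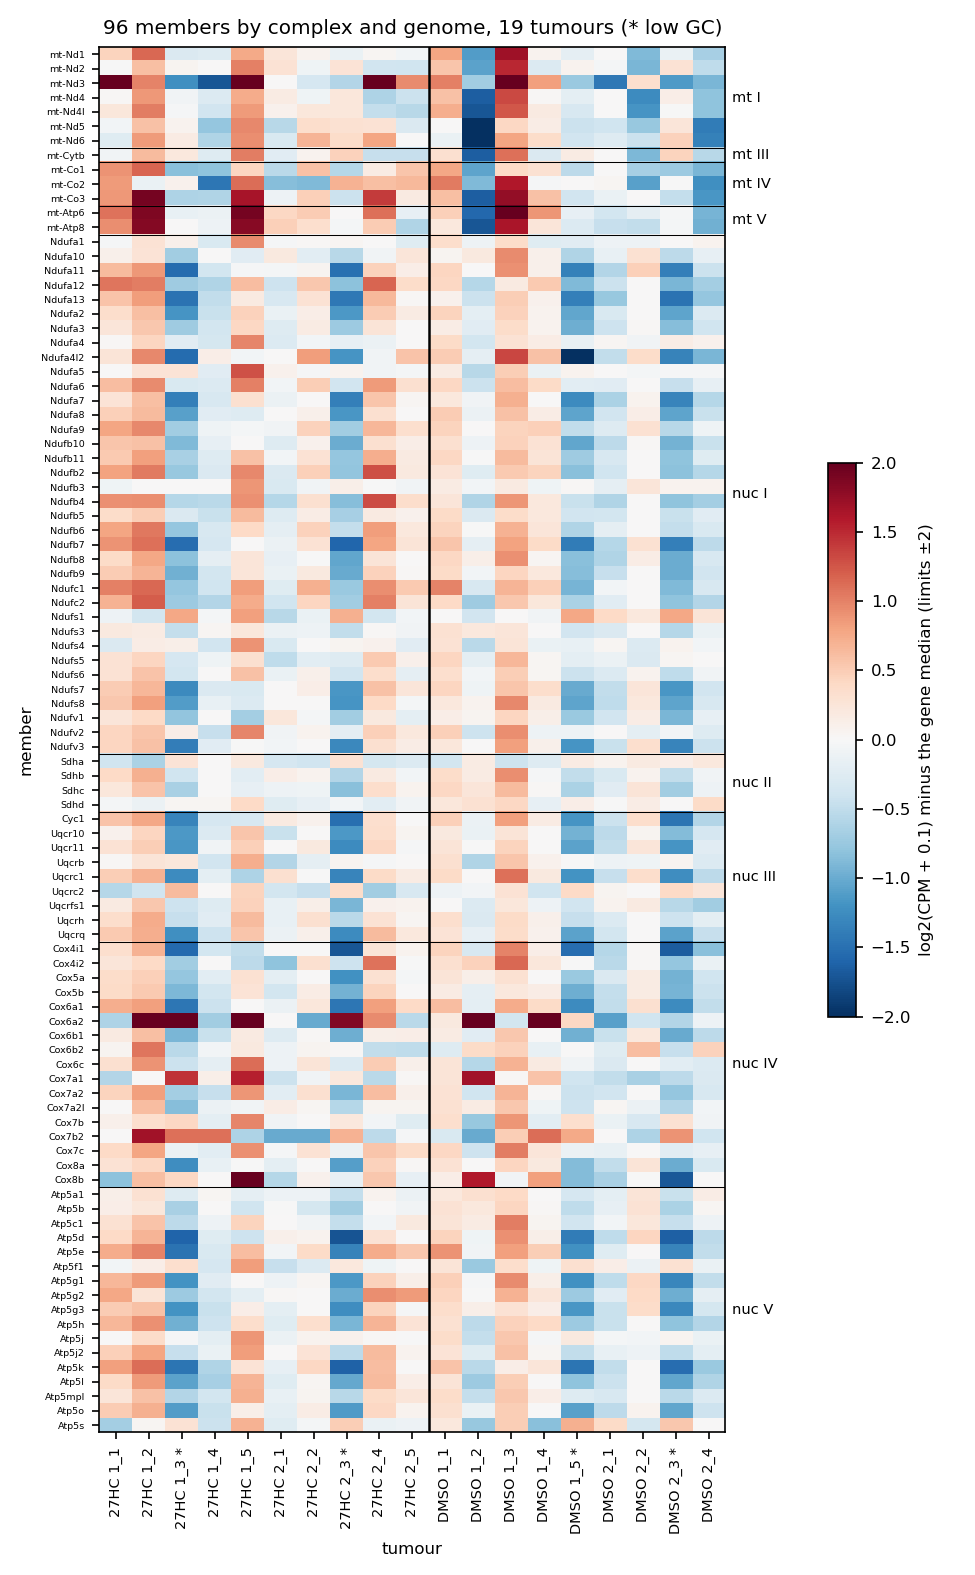
Rows are 96 of the 97 members by complex and genome and columns the 19 tumours, 27HC left and DMSO right, with libraries of low GC content starred. Colour is the log2 CPM (with a small pseudocount) minus the median of the gene, so blue columns of nuclear members under the stars show their lower sums of 3966 to 4316 CPM, against 5572 to 10520 CPM in the other 15 tumours.

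The 4 libraries of low GC content were picked by the transcript GC of their nuclear reads, so lower levels of GC-rich messages in them follow in large part from that choice and are given as a description of the members. In these 4 libraries, 2 from each group, 71 of the 84 nuclear members were lower and 13 higher than the mean of the other 15 tumours, with a median log2 shift of -0.87. All 25 nuclear members with a transcript GC content of at least 55% were lower, with a median shift of -1.30, while of the 10 under 45% 4 were lower and 6 higher. The Spearman correlation of shift and transcript GC was -0.61 over the 84 genes and that with transcript length 0.10; genes of the same libraries are no independent replicates, and these values are descriptions. Ndufb7, with 59.7% GC, averaged 25.6 CPM in the 4 libraries and 89.2 CPM in the other 15. Atp5d, the delta subunit of the ATP synthase, averaged 108 against 363 CPM, and Cox4i1 115 against 379 CPM. Ndufs1, with 45.1% GC, went the other way, with 63.8 against 38.1 CPM, as did the complex III core protein Uqcrc2 with 88.7 against 59.8 CPM and Sdha with 127 against 98.6 CPM.

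The mitochondrial members, with 31.9 to 41.1% GC, had a median shift of 0.00 in these libraries, 6 lower and 7 higher. Here mt-Nd3 was at -1.45, mt-Co3 at -0.86 and mt-Co1 at -0.75, while mt-Cytb was at 0.43 and mt-Nd5 at 0.31. By complex, the nuclear sums without the 4 libraries (SD, n = 8 for 27HC and 7 for DMSO) were 2174 ± 459 CPM in 27HC and 1953 ± 478 CPM in DMSO tumours for complex I, and 332 ± 29.1 CPM in 27HC and 361 ± 50.3 CPM in DMSO tumours for complex II. They were 790.0 ± 139.6 CPM in 27HC and 742.5 ± 187 CPM in DMSO tumours for complex III, 1564 ± 329.8 CPM in 27HC and 1454 ± 430.8 CPM in DMSO tumours for complex IV, and 2995 ± 519 CPM in 27HC and 2993 ± 619 CPM in DMSO tumours for complex V. Each difference was smaller than the SD in DMSO tumours. The ratio of mitochondrial to nuclear sums was 10.8 to 13.5 in the 4 libraries and 3.55 to 14.0 in the other 15. Without the 4 libraries the log2 ratio was 0.40 higher in 27HC tumours, the median fold change was 0.48 for mitochondrial and 0.13 for nuclear members, and 12 of 13 mitochondrial fold changes were above 0. In that fit 8 members had an unadjusted p under 0.05 in edgeR's quasi-likelihood test, all higher in 27HC tumours, against 498 of 15379 genes (3.24%). They were Ndufa12, Ndufa6, Ndufb2, Ndufb4 and Ndufc2 of complex I, Uqcrq of complex III and Atp5j2 and Atp5k of complex V, and each had an adjusted p of 0.9999, so none was called.

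**Figure D5:**
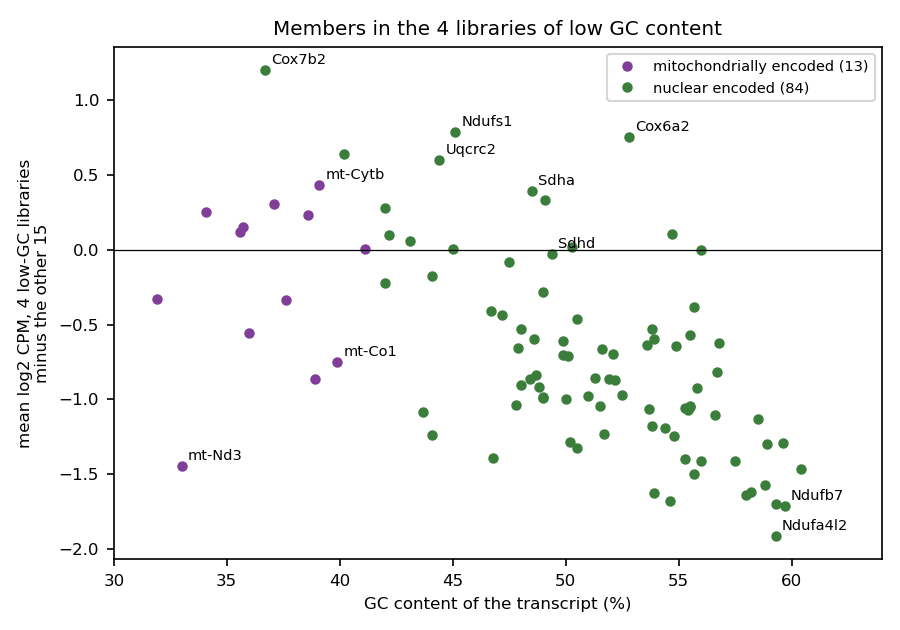
Each point is a member, with the GC content of its transcript on the horizontal axis and, on the vertical axis, its mean log2 CPM in the 4 libraries of low GC content minus that in the other 15. All 25 nuclear members at or above 55% GC lie below 0, with a median of -1.30, and the mitochondrial members lie on both sides of 0.

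Complex II made up 6.78 to 7.36% of the nuclear sum in the 4 libraries and 3.74 to 6.12% in the other 15. Over the 15, the median pairwise correlation among 74 nuclear members of at least 5 CPM was 0.70 on log2 CPM. Sdha, Ndufs1 and Uqcrc2, singled out after their values were seen, correlated with these members with medians of -0.58, -0.12 and -0.23, and with one another at 0.60 to 0.73. These are descriptions over shared libraries, with no test. GC content still differed among the 15, and its part was not tested.

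Single pairs fixed by name showed how far both genomes moved together. Among mitochondrial genes, mt-Co1 followed mt-Nd1 across 19 tumours with r = 0.751 and rho = 0.846 (permutation p adjusted over 6 pairs = 0.00042 and 9e-05), and with r = 0.655 without 27HC 1_2 and DMSO 1_2 and 0.754 without the low GC libraries. Among nuclear genes of different complexes, Cox4i1 followed Ndufa9 over the 15 tumours outside the low GC libraries with r = 0.803 and rho = 0.825 (adjusted permutation p = 0.00066 and 0.00044). Within these 15, 27HC 1_5, DMSO 2_1 and DMSO 2_4 had the lowest GC content, 51.2 to 52.0%, and the lowest Cox4i1, 197 to 251 CPM. The part of GC content in the correlations of Cox4i1 was not tested. Cox4i1 and Atp5b had r = 0.589 and rho = 0.611 (adjusted permutation p = 0.0244 and 0.0207), and r = 0.554 without DMSO 1_3 and DMSO 2_4, with a permutation p of 0.0508 and a rho of 0.643 that kept its call (adjusted permutation p = 0.0308). Between the genomes, mt-Co1 and Cox4i1, subunits of the same complex, had r = 0.634 and rho = 0.636 over the 15 tumours (adjusted permutation p = 0.0164 and 0.0195). Without DMSO 1_2 and DMSO 2_4 this r was 0.501 over 13 tumours with a permutation p of 0.0809. In 27HC tumours alone r was 0.615 and in DMSO tumours alone 0.692, with exact permutation p of 0.103 and 0.0901, so the sizes were close to the pooled one and none of these smaller sets passed.

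The first number of each title, 1 or 2, has no stated meaning. With number 1 the mitochondrial members had a median log2 fold change of 0.30 and the nuclear ones 0.12, and with number 2 these were 0.61 and 0.28. A test of the difference between the numbers called 0 of 96 members, against 0.0% of all genes, and gave 1 an unadjusted p under 0.05, against 1.43%. This was Cox4i2, with a difference of 1.07 (SE 0.50, adjusted p = 0.911 in edgeR's quasi-likelihood test).

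Genes that build and regulate the respiratory chain gave no call either. Of 27 tested genes for mitochondrial DNA replication, transcription and RNA handling, 11 were above 0 and 16 below, with a median of -0.06. Their examples by smallest p were Fastkd3 with 0.19 (SE 0.18) and Slirp with 0.20 (SE 0.20) on the higher side, and Lrpprc, the partner of Slirp that stabilises mitochondrial messages, with -0.26 (SE 0.17) and the RNA helicase Supv3l1 with -0.13 (SE 0.11) on the lower side. Among 10 tested regulators of mitochondrial biogenesis 5 were above 0 and 5 below. Esrrg, an oestrogen-related receptor, had 0.317, 0.659 and 1.09 CPM in 27HC tumours (lowest, median, highest), against 0.247, 0.301 and 0.896 CPM in DMSO tumours. It was low everywhere, its groups overlapped, and its log2 fold change of 0.68 (SE 0.29) had an unadjusted p of 0.0304 and an adjusted p of 0.9998 in edgeR's quasi-likelihood test. The coactivator Ppargc1b was at 0.14 (SE 0.11), the GABP subunit Gabpb1 at -0.10 (SE 0.09) and Nrf1 at -0.10 (SE 0.10).

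Of 51 assembly factors 28 were above 0 and 23 below, with a median of 0.03. Those of complex IV had 16 above and 7 below, with a median of 0.08, and those of complex I 6 above and 9 below, with a median of -0.05. The complex IV factors Pet100 and Coa6 were at 0.40 (SE 0.24) and 0.39 (SE 0.28), while Acad9, a factor of complex I, was at -0.25 (SE 0.15) and Sco1, which delivers copper to complex IV, at -0.15 (SE 0.11). Among 14 electron carriers and entry enzymes 6 were above 0 and 8 below, and among 13 genes of membrane channels, import, prohibitins and matrix chaperones, used as markers of mitochondrial mass, 5 were above 0 and 8 below, with medians of -0.05 and -0.04. In that last list the matrix chaperone Hspa9, named after its values were seen, was at -0.34 (SE 0.12), with an unadjusted p of 0.00757 and an adjusted p of 0.9998 in edgeR's quasi-likelihood test. No member of these lists passed the test, and their medians lay on both sides of the median of all genes, 0.01.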

How the data were processed

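The deposited table holds expected counts per gene for 19 tumours, each column matched to a sample by its title. Kallisto 0.44.0, edgeR, limma and GRCm38 are named in the submitters' processing notes without a role; no source used here tells how transcripts were summed to genes. Such estimated counts divide reads among near-identical genes by a model, which bears on mitochondrial and nuclear members and their copies. Symbols (found for 26290 of 26796 identifiers), coordinates, transcript lengths and GC content came from GENCODE on GRCm38, with the longest principal transcript of each gene.

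Members and gene lists were chosen with earlier results of these data known. Expected counts were rounded and fitted over all genes with edgeR 4.0.16 (R 4.3.3; quasi-likelihood test, TMM, default filter on low counts), with treatment as the term, Benjamini-Hochberg adjustment and a threshold of 0.05. The filter kept 15629 genes and 96 members. CPM is the rounded count scaled to the TMM-normalized library size, and log2 CPM used a prior count of 2. Totals were 28139419 to 41179056 expected counts, and no library looked duplicated (lowest chi-square per degree of freedom between tumours of a group 39). Sums, ratios and lists are descriptions without a test. Copies were found with blastn 2.17.0 at 95% identity or more over at least 100 bases and 50% of the copy. Correlations used 100000 two-sided permutations, or exact ones for up to 9 tumours (numpy 2.4.6, scipy 1.17.1, pandas 2.3.3, Python 3.11.15).

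Named genes were all mitochondrial members, a list of core subunits and tissue isoforms, the nuclear member with the smallest p per complex and direction, and the 2 regulators or assembly factors with the smallest p per list and direction; other members named are examples chosen after their values were seen. Alternatives were RLE size factors, library sizes without mitochondrial genes, other filters, DESeq2 1.42.0, limma-voom (limma 3.58.1), the title numbers, the muscle score as a covariate, copies added, each tumour left out and, chosen after seeing the data, a fit without the 4 libraries of low GC content. The fit was also run on simulated counts, whose changes were larger than that of any member, so this check does not bear on changes of the members' size. Cox8c and Malat1 are not analysed here. One planned result is not reported here.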

Additional observations from a re-analysis of the deposited data

Results flagged for a closer look

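In 118 checks of single tumours within a group, over members and sums, 3 values, from 2 tumours, stood apart from the others of their group by Dixon's criterion, which chance meets in about 1 of 20 checks. Sdhd had 58.15 CPM in 27HC 1_5 and 37.4 to 45.6 CPM in the other 9 27HC tumours. Cox6b2 had 0.7824 CPM in 27HC 1_2 and 0.190 to 0.380 CPM in the other 9. Cox8b had 5.545 CPM in 27HC 1_5 and 0.374 to 1.17 CPM in the other 9, and 27HC 1_5 also had the highest summed skeletal muscle markers, 5293 CPM; their part was not tested.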

How the results depend on the processing

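The number of members past the threshold was 0 in every alternative run, and the medians by genome and complex and the log2 ratio of sums kept their sign in all of them. DESeq2 called 2 genes, neither a member. Leaving out each tumour gave 0 called members in each fit and moved the mitochondrial median between 0.24 (without 27HC 1_5) and 0.49 (without DMSO 1_3), the nuclear median between 0.05 and 0.22, and the log2 ratio of sums between 0.18 and 0.40. The medians ranged from 0.08 to 0.24 for nuclear complex I, -0.14 to -0.07 for complex II, 0.06 to 0.21 for complex III, 0.04 to 0.24 for complex IV and 0.04 to 0.24 for complex V. With the full title number as a replicate block the mitochondrial median was 0.38, the nuclear median 0.11, the log2 ratio 0.34 and the count 0. The numbers did not pair the tumours: 5 of 9 same-numbered pairs had a correlation of deviations above 0.1 (range -0.43 to 0.78), and 2 of the 27HC tumours correlated best with their own number. Of 46 named members with a fit, the sign of 23 turned under at least 1 of 13 other settings and that of 21 when 1 tumour was left out; none was called. The correlation of mt-Co1 and Cox4i1 lost its call in 27HC tumours alone (0.615), in DMSO tumours alone (0.692) and without the 2 farthest tumours (0.501). That of Cox4i1 and Atp5b lost its call by r without the 2 farthest tumours (0.554) and, by adjusted p, in 27HC tumours alone (0.734). In both of these sets rho kept its call (adjusted permutation p = 0.0308 and 0.0231). In DMSO tumours alone r (0.765) lost its call by adjusted p, as did rho (0.643). The smaller sets hold fewer tumours. Depth was high for members of the main complexes, and counting error limits mainly Cox7b2, Cox6b2 and Cox7a1, at about 1 CPM or less in most tumours.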
